A study of Mus musculus with 39 samples.

Results

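Genes that mark tissue macrophages, and in several cases the Kupffer cells of the liver, were followed across kidney, liver, lung and skin of Prf1-/- mice. The genes were chosen by name: Clec4f, Timd4, Vsig4, Marco, Cd5l, Cd163, Mrc1, Msr1, Cd68 and Adgre1. All 10 were found by symbol, among 24537 genes in the table of kidney, liver and lung and among 52508 genes in the separate table of skin. The mice were C57BL/6 and all lacked Prf1, which encodes perforin, the pore-forming protein of cytotoxic lymphocytes, so no group had an intact perforin gene. Young mice were 3 months old and untreated. The old mice were 20 months old, and from 18 months they had received vehicle or ABT-737, a small-molecule inhibitor of anti-apoptotic BCL-2 family proteins, at 25 mg/kg on 2 consecutive days a month for 2 months. Young and vehicle mice thus differed in age and in vehicle injections, which cannot be told apart. Changes with age below are those from young to vehicle mice. Each tissue had 4 young libraries (3 in skin), 3 vehicle libraries and 3 ABT-737 libraries, 39 in all. The treatment label of the libraries with numbers 4 and 5 read ABT-738 and ABT-739, and their titles placed them in the ABT-737 group. The labels did not state that each library came from a separate mouse, so p-values measure the spread between these libraries only.

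Macrophages take up dying cells, microbes and modified proteins through a set of surface receptors, and the populations that live in each organ carry their own combination of them. Kupffer cells sit in the sinusoids of the liver, clear particles and aged red cells from the portal blood, and are marked in mice by the C-type lectin Clec4f, with Timd4, Vsig4 and Cd5l shared with some other resident populations. Cd68 is a glycoprotein of the late endosome and lysosome, and Adgre1 encodes the adhesion receptor F4/80. In RNA from whole tissue, fewer cells of a type and less RNA per cell cannot be told apart.

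In the kidney, liver and lung table, Clec4f was counted on chr6:83644542-83656116 (minus strand), Cd5l on chr3:87357881-87371074 (plus strand), Cd68 on chr11:69664213-69666170 (minus strand) and Adgre1 on chr17:57358686-57483529 (plus strand), all in mm10 coordinates. In the GENCODE M21 annotation all 10 were protein-coding, and no exon of theirs shared a base with an exon of another gene on either strand. The skin table used other transcript models, and its model of Cd163 was shorter than the one in the first table, so levels were not compared between skin and the other tissues.

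Upstream sequences are shown because Clec4f, Cd5l and Cd68 changed together in the liver (values below). RefSeq promoter entries (GRCm38.p6) were found for 8 of the 10 genes, and Msr1 and Adgre1 had none. The 250 bases before each start were searched on both strands for GAGGAA, the purine-rich core that PU.1 can bind, for TGCTGA, a site that MAF factors can bind, and for TGANTCA, an AP-1 site. Capitals mark the matches. Each sequence is written 5′ to 3′ on the strand of the gene and ends before the outermost annotated start, which left out the last 71 bases of the window of Clec4f.
Clec4f, chr6:83656188-83656366 (minus strand): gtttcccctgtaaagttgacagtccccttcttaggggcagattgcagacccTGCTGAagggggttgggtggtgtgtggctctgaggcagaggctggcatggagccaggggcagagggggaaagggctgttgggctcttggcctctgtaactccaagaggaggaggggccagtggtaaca
Cd5l, chr3:87357631-87357880 (plus strand): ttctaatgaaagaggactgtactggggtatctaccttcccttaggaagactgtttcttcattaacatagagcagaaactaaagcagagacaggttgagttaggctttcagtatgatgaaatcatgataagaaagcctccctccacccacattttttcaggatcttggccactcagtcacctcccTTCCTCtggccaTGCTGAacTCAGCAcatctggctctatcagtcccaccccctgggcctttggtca
Cd68, chr11:69666171-69666420 (minus strand): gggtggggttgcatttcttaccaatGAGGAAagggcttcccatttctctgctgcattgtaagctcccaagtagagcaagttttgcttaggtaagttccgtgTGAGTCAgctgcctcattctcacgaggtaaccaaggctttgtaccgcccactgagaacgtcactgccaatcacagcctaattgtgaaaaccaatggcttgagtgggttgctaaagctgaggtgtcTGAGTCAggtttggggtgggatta
Cd5l held GAGGAA on the opposite strand (printed as TTCCTC) and TGCTGA on both strands, Clec4f held TGCTGA, and Cd68 held GAGGAA once and TGANTCA at both of its other marked positions. None of the matches in these windows overlapped another. Over the 8 members with an entry, 5 held GAGGAA, 3 held TGCTGA and 1 held TGANTCA, whereas 23.3%, 16.1% and 6.75% of all 32851 windows of that length did. A match is only a run of letters and was not tested as a binding site.

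The libraries were shallow in the liver, where the total count per library ranged from 223957 to 891116. The range was 1431814 to 3513311 in kidney, 1046508 to 2600092 in lung and 1493411 to 3842808 in skin. Of the 10 members, 2 passed the filter on low counts in kidney (Cd68, Adgre1), 4 in liver (Clec4f, Cd5l, Cd68, Marco), 7 in lung (all but Clec4f, Timd4 and Vsig4) and 5 in skin (Cd68, Adgre1, Msr1, Mrc1, Cd163). Timd4 and Vsig4 passed in no tissue. A pair of lung libraries stood apart from their groups. ABT-737 replicate 4 had a summed level of 827 CPM (counts per 1000000 of the scaled library size) over 5 hepatocyte markers, against 37.4 and 16.1 CPM in the other ABT-737 lungs, and vehicle replicate 5 had the highest level in its group of 6 of the 7 members tested there. Values without these libraries stand beside the lung results that they changed.

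The levels in young mice show how the genes are spread over organs without age or drug. These CPM were scaled over the young kidney, liver and lung libraries together. They therefore differ from the CPM of the same libraries further below, which were scaled within each tissue. The sums of hepatocyte markers keep the scale of the lung libraries alone. Clec4f was a liver gene: its level was 154, 247, 210 and 211 CPM in the 4 young livers, 0 in each of the 4 young kidneys and 2.74, 0, 0.433 and 0 CPM in the young lungs. The liver mean of 206 ± 38.7 CPM (SD, n = 4) was at least 211-fold higher than kidney, with the kidneys set at 3 counts per library, and exceeded lung by 7.77 ± 0.35 (SE) on the log2 scale (edgeR adjusted p = 8.35e-17). The single lung library with more than 3 counts of Clec4f, young replicate 1 with 7, was also the young lung with the highest summed level of hepatocyte markers, 294 CPM against 39.1 to 96.2 CPM in the others. Lung ABT-737 replicate 4 had a sum of 827 CPM and 0 counts of Clec4f. The source of the Clec4f counts in lung was not tested. Cd5l, a secreted scavenger protein of macrophages, followed the order of Clec4f over the young tissues, with 111, 149, 125 and 128 CPM in young liver, 0 in every young kidney and 0.418 to 1.96 CPM in young lung. Its liver level was at least 132-fold higher than that of kidney and 6.78 ± 0.30 higher than that of lung on the log2 scale (edgeR adjusted p = 4.11e-17).

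**Figure D1:**
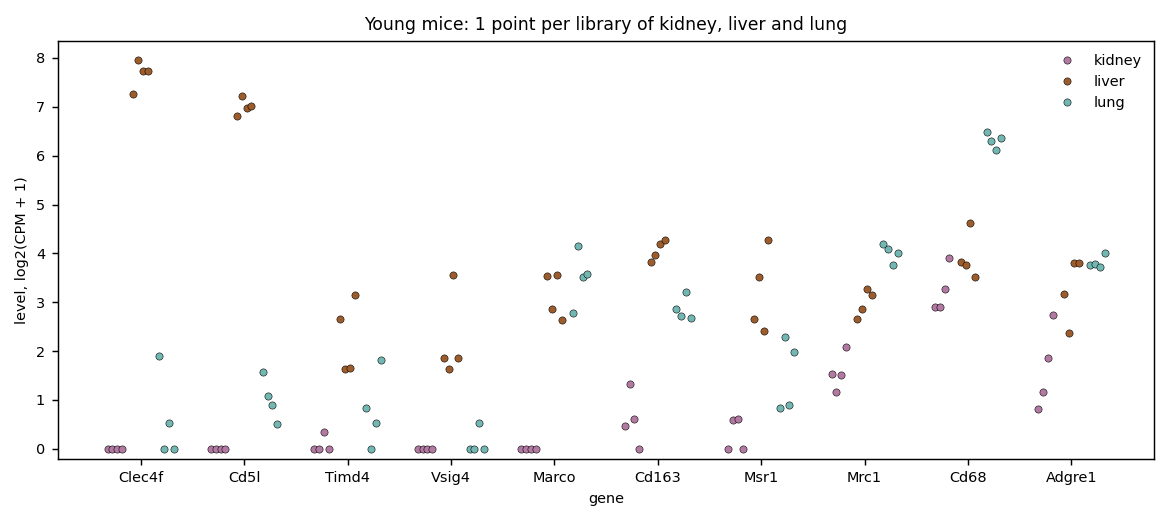
Level of each of the 10 genes in the 4 young libraries of kidney, liver and lung, as log2(CPM + 1), 1 point per library. Clec4f and Cd5l stand out in liver, Cd68 is highest in lung, and 4 genes are at 0 in every young kidney.

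Cd68 was highest in lung. It was measured at 68.0 to 88.8 CPM in young lung (mean 78.7 ± 8.63, SD, n = 4), 10.4 to 23.6 CPM in young liver (15.0 ± 5.89) and 6.43 to 13.9 CPM in young kidney (8.86 ± 3.50). Lung was above both, and liver and kidney did not differ beyond their spread (difference 0.82 ± 0.36 (SE) on the log2 scale, edgeR adjusted p = 0.0590). Mrc1, the mannose receptor, was likewise highest in lung, with 12.6 to 17.2 CPM there, 5.29 to 8.59 CPM in liver and 1.24 to 3.27 CPM in kidney, and each step passed the test. Adgre1 was measured at 12.1 to 15.1 CPM in young lung and 4.19 to 13.05 CPM in young liver, which did not differ beyond their spread (edgeR adjusted p = 0.350), and at 0.757 to 5.72 CPM in young kidney, which was lower than both. Cd163, the haemoglobin scavenger receptor, was highest in liver (13.2 to 18.3 CPM, 5 to 8 counts per library), lower in lung (5.44 to 8.23 CPM) and lowest in kidney (0 to 1.49 CPM).

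Marco, a class A scavenger receptor of alveolar macrophages and Kupffer cells among others, was at 5.22 to 10.7 CPM in young liver and 5.87 to 16.7 CPM in young lung, which did not differ beyond their spread (edgeR adjusted p = 0.478), and at 0 in each young kidney. Msr1, the class A scavenger receptor that takes up modified lipoproteins, had 2 to 7 counts in each young liver and lung and at most 2 in a young kidney, and was not tested. Timd4, a receptor for the phosphatidylserine of dying cells, had 1 to 3 counts per young liver, and Vsig4, a complement receptor, had 1 to 5. In young kidney Vsig4 was at 0 in all 4 libraries and Timd4 had a single count. Of the 7 members tested across young tissues, 6 differed between liver and kidney, 5 between liver and lung and 7 between kidney and lung. Such differences were common: 51.5%, 69.4% and 74.7% of all genes tested did so in these comparisons. Clec4f and Cd5l passed the filter on low counts here only through the young livers, and Marco and Mrc1 would not have passed without the young lungs. Their tests and these counts thus include genes that the filter selected by a high level in a compared tissue. The call of Clec4f between kidney and lung rested on 7, 0, 1 and 0 counts in the young lungs, against 0 in each kidney. Without young lung replicate 1, 6 members were called in that comparison.

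In the liver, all 4 tested members were higher in old vehicle mice than in young mice, and 3 of them were lower again after ABT-737. Clec4f was measured at 112, 176, 151 and 155 CPM in young livers, at 467, 475 and 470 CPM in vehicle livers and at 87.2, 108 and 168 CPM in ABT-737 livers. Every vehicle library lay above all others, and the ABT-737 and young libraries overlapped. Clec4f rose by 1.66 ± 0.23 (SE) on the log2 scale with age, 3.16-fold (edgeR adjusted p = 1.53e-04), and fell by 1.94 ± 0.26 after ABT-737, 3.84-fold (edgeR adjusted p = 5.80e-04). Both calls held under each single library left out.

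Cd68 was measured at 9.68, 8.94, 16.9 and 7.67 CPM in young livers, 26.2, 62.0 and 45.0 CPM in vehicle livers and 3.96, 9.48 and 14.9 CPM in ABT-737 livers. The vehicle libraries lay above both other groups, which overlapped each other, although the counts behind these levels were small (1 to 11 in young and ABT-737 livers, 6 to 53 in vehicle livers). The increase with age was 2.11 ± 0.37 (SE) on the log2 scale (edgeR adjusted p = 8.99e-04) and it fell by 2.23 ± 0.45 after ABT-737, 4.69-fold (edgeR adjusted p = 0.00973).

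Cd5l showed more spread. Its level was 81.3, 106, 89.1 and 94.0 CPM in young livers, 65.5, 275 and 393 CPM in vehicle livers and 55.5, 39.8 and 49.5 CPM in ABT-737 livers. Vehicle replicate 3 lay below the young range, and it was also the shallowest of the series, with 15 counts of Cd5l. All ABT-737 livers lay below every other liver. Cd5l rose by 1.46 ± 0.36 (SE) on the log2 scale with age (edgeR adjusted p = 0.00836), and fell by 2.43 ± 0.44 after ABT-737, 5.39-fold (edgeR adjusted p = 0.00483).

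Marco was measured at 7.74, 4.47, 7.68 and 3.84 CPM in young livers, 26.2, 9.36 and 78.3 CPM in vehicle livers and 31.7, 11.4 and 9.90 CPM in ABT-737 livers. It rose by 2.70 ± 0.66 (SE) on the log2 scale with age (edgeR adjusted p = 0.00829). Vehicle and ABT-737 livers overlapped, and the difference of -1.34 ± 0.67 did not pass the test (edgeR adjusted p = 0.357). Vehicle replicate 5 carried most of it, with 61 counts against 6 and 8: without this library the difference was 0.18, and the change with age was 1.21 and no longer called (edgeR adjusted p = 0.218).

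**Figure D2:**
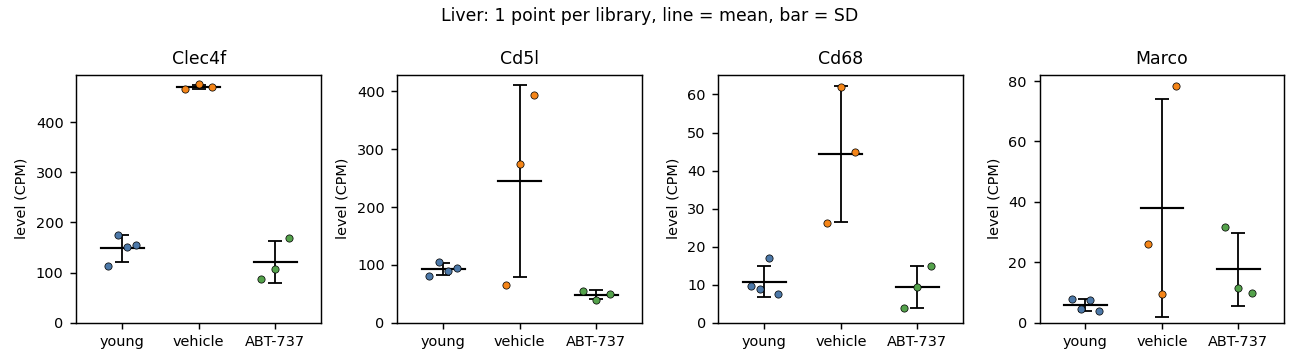
Levels of Clec4f, Cd5l, Cd68 and Marco in liver in CPM, 1 point per library, by group, with the mean as a line and the SD as a bar. The 3 vehicle livers lie above the young and ABT-737 livers for Clec4f and Cd68, whereas 1 of the 3 vehicle livers for Cd5l and 2 of the 3 for Marco do not lie above every library of the other groups.

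In the whole liver table, 11.7% of the genes tested were called higher in vehicle than in young mice and 2.85% were called lower after ABT-737. The members' counts were 4 of 4 and 3 of 4, and their median log2 changes were 1.88 and -2.08, beside 0.02 and -0.03 over all genes tested. Cd68 passed the filter on low counts only through the vehicle livers, where it was high. Both counts therefore include a gene that the filter selected by its high vehicle level. Marco passed only through vehicle replicates 3 and 5 and ABT-737 replicate 3, and through no young liver. The count called higher with age thus includes another gene that the filter selected by high levels in old livers. Without ABT-737 replicate 4 the count called lower after ABT-737 was 1 (Clec4f), and without vehicle replicate 4 the change of Cd68 missed the threshold (edgeR adjusted p = 0.0685). Without vehicle replicate 5 the count called higher with age was 2, Cd68 and Clec4f. Since both comparisons used the same vehicle livers, a high or low vehicle library moves them in opposite directions.

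The other 6 members had too few reads in liver for the test. Msr1 had 2 to 7 counts per young liver, 2, 11 and 16 in vehicle livers and 0, 2 and 1 in ABT-737 livers. Adgre1 had 2 to 6 counts per young liver, 0, 5 and 9 in vehicle livers and 0 in each of the 3 ABT-737 livers. Cd163 had 5 to 8 counts in young livers, 0, 3 and 10 in vehicle livers and 2, 5 and 5 in ABT-737 livers, which is no common direction. Vsig4 reached 10 counts in 1 vehicle liver and at most 5 elsewhere, Timd4 had at most 5 counts and Mrc1 at most 7. At these counts the levels are too imprecise to rank the groups for single genes. Without the filter on low counts, 4 of the 10 members were called lower or higher between ABT-737 and vehicle livers, against 3 with it.

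In the kidney, both testable members rose with age. Cd68 was measured at 7.29, 7.17, 9.66 and 15.7 CPM in young kidneys, 17.7, 41.7 and 23.5 CPM in vehicle kidneys and 11.3, 9.90 and 16.1 CPM in ABT-737 kidneys. Adgre1 was measured at 0.858, 1.38, 2.93 and 6.46 CPM in young kidneys, 17.7, 23.9 and 10.8 CPM in vehicle kidneys and 5.14, 6.93 and 3.63 CPM in ABT-737 kidneys. For both genes each vehicle kidney lay above every young and every ABT-737 kidney, and the young and ABT-737 kidneys overlapped. The increase with age was 1.45 ± 0.32 (SE) on the log2 scale for Cd68, 2.74-fold (edgeR adjusted p = 0.00615), and 2.62 ± 0.44 for Adgre1, 6.16-fold (edgeR adjusted p = 8.64e-04). This made 2 of 2 members called higher, where 7.75% of all genes tested in kidney were, and both calls held under each single library left out.

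After ABT-737, neither gene passed the threshold in kidney. The differences from vehicle were -1.10 ± 0.35 (SE) on the log2 scale for Cd68 (edgeR adjusted p = 0.136) and -1.70 ± 0.46 for Adgre1 (edgeR adjusted p = 0.0869), and both had an unadjusted p under 0.05. In the same comparison 1.21% of all genes tested were called lower. DESeq2 called 1 of the 2 (Adgre1, adjusted p = 0.0380), and edgeR without a filter on low counts called both. A call also appeared when young replicate 4 (Adgre1, edgeR adjusted p = 0.0486) or vehicle replicate 3 (Cd68, edgeR adjusted p = 0.0394) was left out. The other 8 members were near the floor in kidney: Clec4f and Vsig4 had no count in any of the 10 libraries, Cd5l was seen only in vehicle replicates 4 and 5 (8 and 3 counts), Marco only in vehicle replicate 4 (3 counts), and Mrc1 had 2 to 8 counts per library. Msr1 had 0 to 2 counts per young kidney, 3, 3 and 7 in vehicle kidneys and 1 or 2 in ABT-737 kidneys, Cd163 had at most 6 counts and Timd4 at most 1.

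**Figure D3:**
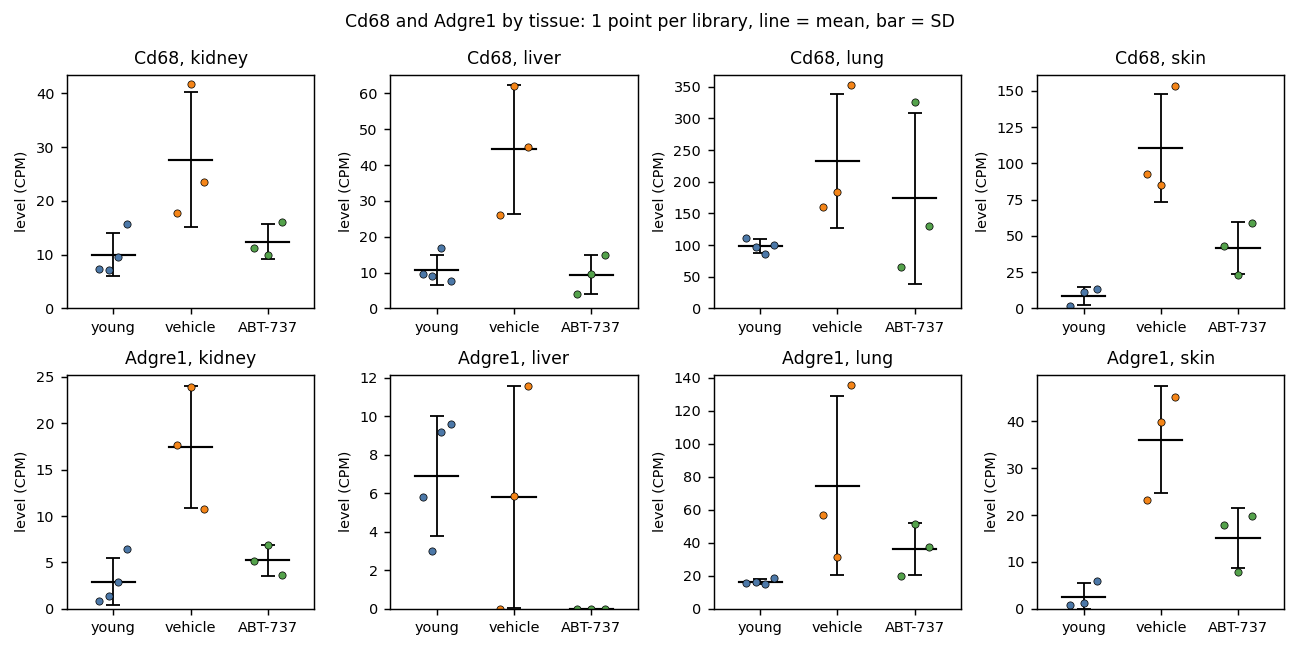
Levels of Cd68 (upper row) and Adgre1 (lower row) in kidney, liver, lung and skin in CPM, 1 point per library, by group, with the mean as a line and the SD as a bar. Vehicle libraries lie above young libraries in each tissue except for Adgre1 in liver, where counts were too few to test.

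In the lung, 4 of the 7 tested members were called higher in old vehicle mice than in young mice, where 8.15% of all genes tested were. Msr1 and Cd5l among these would not have passed the filter on low counts without the vehicle lungs, where they were high. Adgre1 was measured at 15.7, 16.0, 15.2 and 18.7 CPM in young lungs, 57.0, 31.3 and 136 CPM in vehicle lungs and 20.0, 51.6 and 37.6 CPM in ABT-737 lungs. All old lungs lay above all young lungs, and the old groups overlapped. Its increase with age was 2.19 ± 0.43 (SE) on the log2 scale, 4.56-fold (edgeR adjusted p = 0.00642). Adgre1 was the only one of the 4 calls that held under each single library left out.

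Msr1 was measured at 0.981, 4.87, 1.09 and 3.64 CPM in young lungs, 16.8, 12.9 and 48.6 CPM in vehicle lungs and 2.58, 19.0 and 6.71 CPM in ABT-737 lungs, with no overlap between young and vehicle. It rose by 3.35 ± 0.68 (SE) on the log2 scale (edgeR adjusted p = 0.00684). Mrc1 was measured at 21.6, 20.2, 15.7 and 18.7 CPM in young lungs, 36.2, 33.9 and 62.5 CPM in vehicle lungs and 36.7, 34.8 and 69.8 CPM in ABT-737 lungs. Both old groups lay above the young lungs and overlapped each other closely, with an increase of 1.22 ± 0.32 from young to vehicle (edgeR adjusted p = 0.0233).

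Cd5l was barely detected in young lungs (2.45, 1.39, 1.09 and 0.520 CPM, 1 to 5 counts) and was measured at 10.7, 17.6 and 98.0 CPM in vehicle lungs and 0.644, 68.5 and 4.92 CPM in ABT-737 lungs. It rose by 4.89 ± 1.18 (SE) on the log2 scale with age (edgeR adjusted p = 0.0159). Cd68 was measured at 85.2 to 111 CPM in young lungs, 160.0, 183 and 353 CPM in vehicle lungs and 65.0, 326 and 131 CPM in ABT-737 lungs. Its young and vehicle libraries did not overlap, but the difference of 1.24 ± 0.43 missed the threshold (edgeR adjusted p = 0.0713), and DESeq2 called it (adjusted p = 0.0446). Marco ranged from 7.36 to 20.9 CPM in young lungs and was measured at 11.4, 42.0 and 118 CPM in vehicle lungs and 49.6, 109 and 1.79 CPM in ABT-737 lungs (difference from young to vehicle 2.10 ± 0.84, edgeR adjusted p = 0.113). Cd163 was at 6.76 to 10.3 CPM in young lungs, 13.4, 7.72 and 2.99 CPM in vehicle lungs and 7.08, 33.7 and 11.6 CPM in ABT-737 lungs, and it had the least difference between young and vehicle (-0.05 ± 0.55, edgeR adjusted p = 0.963).

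The lung counts depended on single libraries. Without vehicle replicate 5, only Adgre1 was called higher with age. The changes from young to vehicle lungs were then 1.41 for Adgre1 (edgeR adjusted p = 0.0470), 2.50 for Msr1, 3.32 for Cd5l, 0.88 for Mrc1, 0.80 for Cd68 and 1.01 for Marco on the log2 scale, all below their values with it. Without young replicate 3 or young replicate 4 the calls of Mrc1 and Cd5l were lost and 2 were left. No member passed between ABT-737 and vehicle lungs with edgeR or DESeq2 (0 of 7 each, 2 of 7 at an unadjusted p under 0.05: Msr1 with -1.60 ± 0.67 and Adgre1 with -1.06 ± 0.46 on the log2 scale), and 0% of all 11949 genes tested were called lower there. Without vehicle replicate 5 these differences were -0.76 for Msr1 and -0.29 for Adgre1 (edgeR adjusted p = 0.848 and 0.919). For each of the 7 genes the vehicle and ABT-737 lungs overlapped. Clec4f had at most 2 counts in a vehicle lung and 0 in each ABT-737 lung.

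ABT-737 replicate 4 was the lung with the highest hepatocyte marker sum of all 10. It was also the highest of its group for 6 of the 7 members (all but Mrc1), and it held 24 counts of Timd4 (25.3 CPM) and 17 of Vsig4 (17.9 CPM), where the other 9 lungs held 0 to 9 of Timd4 and 0 to 2 of Vsig4. Clec4f was at 0 in this library. The source of its Timd4 and Vsig4 counts was not tested. Without ABT-737 replicate 4, Cd5l was called lower in ABT-737 than in vehicle lungs (-3.80 on the log2 scale, edgeR adjusted p = 0.0348), against -0.93 ± 0.99 with it (edgeR adjusted p = 0.671). In the fit without this library 0.433% of all genes tested were called lower and 4.99% higher, against 0% each with all libraries. Without vehicle replicate 5, the direction of Cd5l turned (0.65), as did that of Marco (0.90). The part of the hepatocyte signal in these values was not tested.

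**Figure D4:**
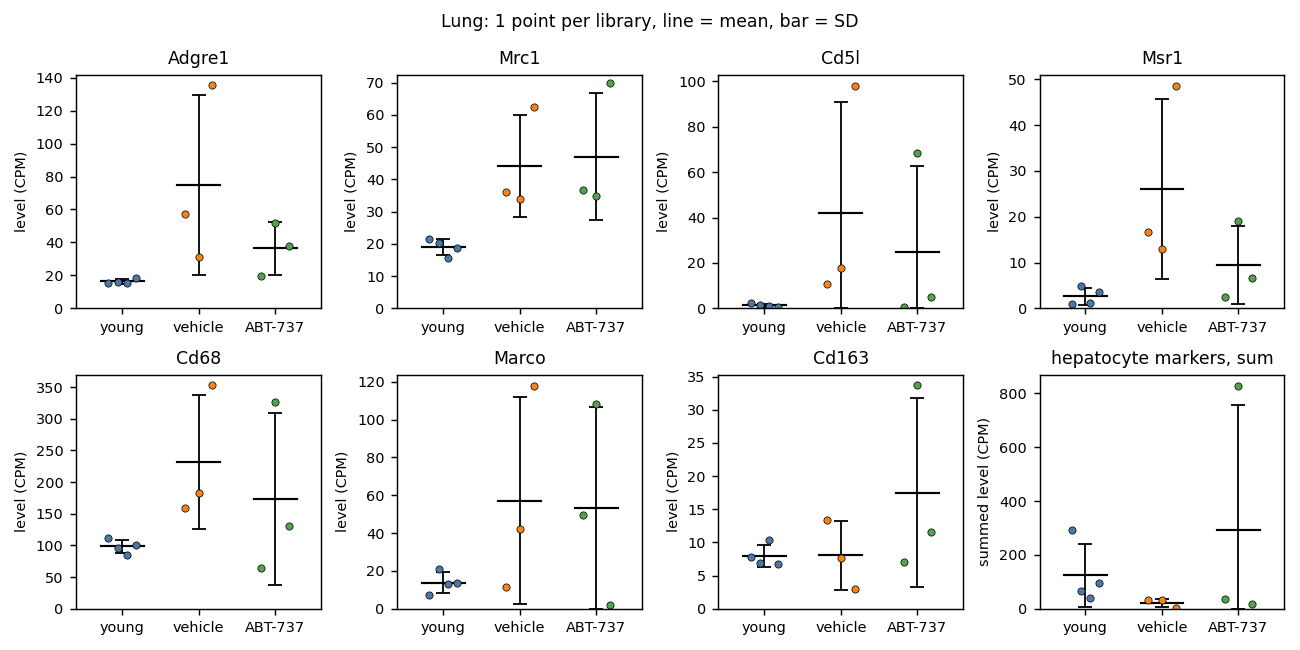
Levels of the 7 tested genes in lung and, in the last panel, the summed level of 5 hepatocyte markers, in CPM, 1 point per library, by group, with the mean as a line and the SD as a bar. Points in a group are in the order of their replicate numbers from left to right, so that vehicle replicate 5 and ABT-737 replicate 4 can be followed as the high points of most panels.

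In the skin, 4 of the 5 tested members were called higher in old vehicle mice than in young mice, where 5.84% of all genes tested were. Among these 4, Msr1 passed the filter on low counts only through the vehicle skins, where it was high. Cd68 was measured at 1.45, 11.5 and 13.2 CPM in young skin, 92.7, 85.4 and 154 CPM in vehicle skin and 43.3, 23.1 and 58.8 CPM in ABT-737 skin. The 3 groups did not overlap, with ABT-737 between the others. It rose with age by 3.60 ± 0.59 (SE) on the log2 scale, 12.2-fold (edgeR adjusted p = 0.0130). Adgre1 had the same order without overlap, with 0.724, 1.15 and 5.91 CPM in young skin, 23.3, 39.9 and 45.2 CPM in vehicle skin and 17.9, 7.83 and 19.8 CPM in ABT-737 skin, and rose with age by 3.64 ± 0.63 (edgeR adjusted p = 0.0145).

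Mrc1 was measured at 2.89, 2.30 and 2.73 CPM in young skin, 7.47, 38.4 and 27.9 CPM in vehicle skin and 11.7, 5.48 and 13.1 CPM in ABT-737 skin. Both old groups lay above the young skin and overlapped each other, and the increase from young to vehicle was 3.21 ± 0.64 (SE) on the log2 scale (edgeR adjusted p = 0.0196). Msr1 had 0, 0 and 1 count in young skin, 12, 13 and 82 in vehicle skin and 15, 0 and 11 in ABT-737 skin. Its vehicle level was at least 6.18-fold higher than young skin, with the young libraries set at 3 counts each (edgeR adjusted p = 0.0368). Vehicle replicate 5 had 22.6 CPM against 5.27 and 4.63 CPM in the other vehicle skins, and without it the level was at least 2.82-fold higher and the call was lost (edgeR adjusted p = 0.106). Cd163 was measured at 11.6, 13.2 and 33.2 CPM in young skin, 28.6, 124 and 38.6 CPM in vehicle skin and 68.2, 27.4 and 33.5 CPM in ABT-737 skin, all overlapping (young to vehicle 1.69 ± 0.64, edgeR adjusted p = 0.108).

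With 3 young skins, the counts were sensitive to each of them: 1, 0 and 2 members were called higher with age without young replicate 1, 2 or 3, and 2 without vehicle replicate 5. Between ABT-737 and vehicle skin, all 5 differences were negative (median -1.28 on the log2 scale, beside 0.04 over all genes tested) and none passed with edgeR or DESeq2. Of the 5, 4 had an unadjusted p under 0.05: Cd68 with -1.40 ± 0.51, Adgre1 with -1.24 ± 0.50, Mrc1 with -1.28 ± 0.52 and Msr1 with -2.10 ± 0.87, and their edgeR adjusted p ranged from 0.543 to 0.592. Of all 14224 genes tested in skin, 0% were called lower. Clec4f had no count in any skin library, and Marco had at most 2. Cd5l had at most 1 count in young skin, 5, 23 and 13 in vehicle skin and 2, 3 and 5 in ABT-737 skin, too few for the filter. Vsig4 reached 17 counts in vehicle replicate 5 and at most 2 in the other 8 libraries, and Timd4 had 0 to 12 counts with no common direction.

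**Figure D5:**
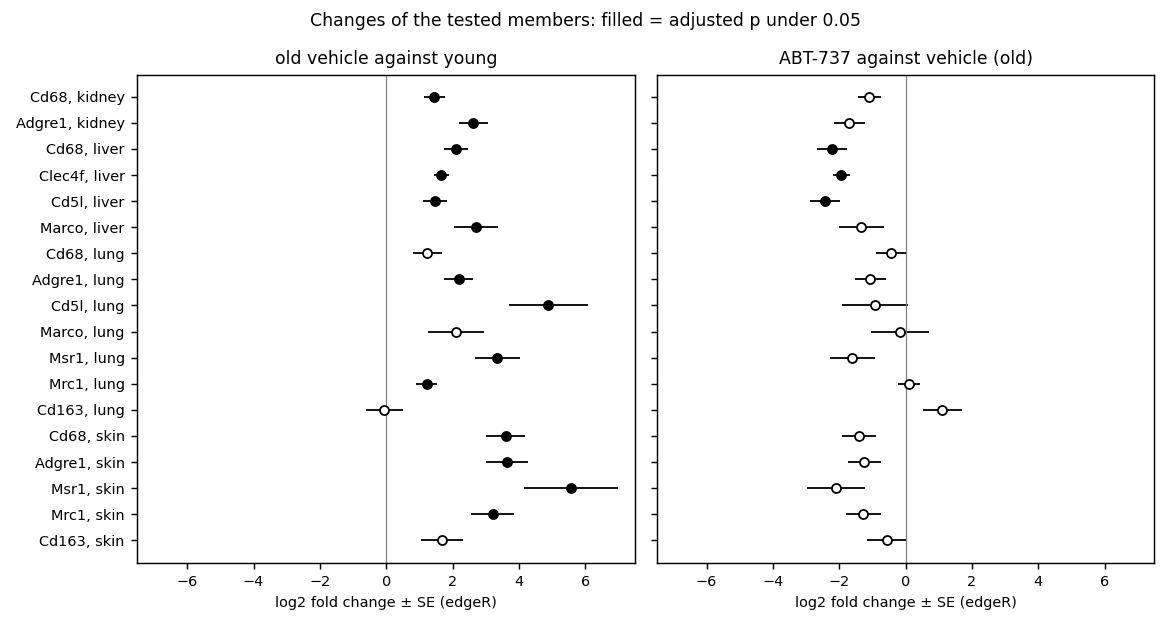
Log2 fold change (edgeR, ± SE) of each tested gene in each tissue for old vehicle against young mice (left) and ABT-737 against vehicle (right), with filled symbols for an adjusted p under 0.05. The 14 filled symbols on the left all lie above 0 and the 3 filled symbols on the right, Cd68, Clec4f and Cd5l in liver, all lie below 0.

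Old mice given ABT-737 were also compared with young mice, with the same young libraries as before. In kidney 0 of 2 members were called higher and in liver 0 of 4, where 1.38% and 3.13% of all genes tested were. With DESeq2 the counts were 0 in both tissues, and at an unadjusted p under 0.05 they were 0 in kidney and 1 in liver, Cd5l, which was lower in all 3 ABT-737 livers than in the 4 young livers (-0.97 ± 0.43 on the log2 scale, edgeR adjusted p = 0.186). In lung 1 of 7 was called (2.15% of all genes tested): Mrc1, with 1.32 ± 0.32 (SE) on the log2 scale (edgeR adjusted p = 0.0471). This call was lost without any 1 of the 4 young lungs, without vehicle replicate 3 or without ABT-737 replicate 5, and 2 members were called without vehicle replicate 5 or ABT-737 replicate 3. In skin 0 of 5 were called with edgeR (2% of all genes tested) and 3 with DESeq2, and 3 had an unadjusted p under 0.05. Cd68 (2.20 ± 0.57, edgeR adjusted p = 0.0560) and Adgre1 (2.40 ± 0.63, edgeR adjusted p = 0.0573) lay closest to the threshold, with no overlap between young and ABT-737 skin. The skin count was 1 without vehicle replicate 3 or 5 and 2 without ABT-737 replicate 3, and the liver count was 1 without vehicle replicate 3.

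A call after ABT-737 in liver and none elsewhere is no test of a difference between tissues, so the change was compared between tissues directly for each member tested in both. Cd68 was the only member with a value in all 3 tissues of the first table. Its change from vehicle to ABT-737 was 1.16 ± 0.80 (SE) lower in liver than in kidney on the log2 scale and 1.81 ± 0.75 lower in liver than in lung, as differences of -1.16 and -1.81, and neither passed the test (edgeR adjusted p = 0.807 and 0.302). Differences between liver and lung were -1.17 ± 1.25 for Marco and -1.42 ± 1.12 for Cd5l (edgeR adjusted p = 0.747 and 0.632). Between kidney and lung, the differences were -0.65 ± 0.57 for Cd68 and -0.61 ± 0.68 for Adgre1 (edgeR adjusted p = 0.745 and 0.813). In these comparisons 0.0839%, 0.29% and 0% of all genes tested were called, in the order liver against kidney, liver against lung and kidney against lung. Of the members, 0 were called in any of the 3, and 1 value, Cd68 in liver against lung, had an unadjusted edgeR p under 0.05.

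Other macrophage genes were counted in the same comparisons. Of 16 core macrophage genes, among them the growth factor receptor Csf1r, the complement genes C1qa, C1qb and C1qc, and the protease Ctss, 13 of 15 tested were called higher with age in kidney, 12 of 13 in liver (1 was lower), 13 of 15 in lung (9 without vehicle replicate 5) and 14 of 16 in skin. The shares of all genes called higher were those given above, and those called lower with age were 5.5% for kidney, 10.8% for liver, 4.73% for lung and 5.35% for skin. After ABT-737, 8 of 15 were called lower in kidney and 12 of 13 in liver, and none in lung and skin. The median log2 change from vehicle to ABT-737 over this list was -1.19 for kidney, -2.33 for liver, -0.82 for lung and -1.58 for skin. C1qa in liver was at 116 ± 12.2 CPM in young mice (SD, n = 4), 760.3 ± 82.3 CPM with vehicle (n = 3) and 144 ± 46.2 CPM with ABT-737 (n = 3), and fell by 2.39 ± 0.26 (SE) on the log2 scale after ABT-737 (edgeR adjusted p = 1.40e-04). In kidney C1qa was at 56.2 ± 8.19, 325 ± 92.8 and 121 ± 38.9 CPM in the same order (change after ABT-737 -1.42 ± 0.23, edgeR adjusted p = 0.00365).

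Genes that direct or serve resident macrophages were called higher with age more often than lower, and falls were called only in kidney and liver. The 1 fall among 8 in liver was near the 10.8% of all genes called lower with age there. Of 13 such genes, 4 of 10 tested rose with age in kidney and 2 fell, 4 of 8 rose in liver and 1 fell, 4 of 11 rose in lung (2 without vehicle replicate 5) and 5 of 12 rose in skin. Spi1, which encodes the lineage factor PU.1, was higher with age in all 4 tissues, although its call in lung was lost without vehicle replicate 5 (edgeR adjusted p = 0.0780). It was at 4.67 ± 1.42 CPM in young livers and 27.8 ± 3.86 CPM in vehicle livers (SD) and fell to 3.55 ± 3.09 CPM after ABT-737 in liver (edgeR adjusted p = 0.0105). Hmox1, the haem-degrading enzyme, fell from 124 ± 35.6 to 14.3 ± 5.04 CPM in liver (change -3.22 ± 0.40 on the log2 scale, edgeR adjusted p = 2.81e-04). Axl, a receptor for the bridging molecules that bind dying cells, fell from 49.4 ± 2.85 to 14.2 ± 2.83 CPM (edgeR adjusted p = 0.00807). Of the other scavenger receptors, 2 of 8 rose with age in kidney and 1 fell, 1 of 6 rose in liver, 2 of 11 fell in lung (0 without vehicle replicate 5) and 2 of 9 rose in skin, and none passed the test after ABT-737. For 1 of 6 in liver, beside 11.7% of all genes tested there, the share was near the background, and the other counts were of 1 or 2 genes each. Stab1, a scavenger receptor of macrophages and endothelium, rose in skin from 15.6 ± 8.99 to 60.5 ± 30.4 CPM (edgeR adjusted p = 0.0303), and Cd36, which takes up lipids, fell in kidney from 87.4 ± 13.2 to 36.6 ± 24.1 CPM (edgeR adjusted p = 0.0140). Of the growth factors and receptors, Csf1, the main survival factor of macrophages, rose with age in kidney from 13.2 ± 2.32 to 31.8 ± 6.28 CPM (edgeR adjusted p = 0.00497), and Tgfb1 rose in liver from 16.3 ± 3.19 to 38.3 ± 4.71 CPM and fell to 7.70 ± 4.05 CPM after ABT-737 (edgeR adjusted p = 0.00416).

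Markers of other leukocytes moved with the members, and their part in the members' values was not tested. The summed level of 9 T and NK cell genes was 3.84 to 6.14 CPM in young livers, 74.2 to 97.6 CPM in vehicle livers and 7.59 to 19.8 CPM in ABT-737 livers, and in kidney it was 8.82 to 14.3, 60.9 to 103 and 15.3 to 37.4 CPM. The 9 monocyte genes summed to 5.81 to 17.3, 48.0 to 85.5 and 3.96 to 13.3 CPM in liver, with Ccr2 at 0 in every liver. Markers of the tissues' own cells were read in the same way. The 7 genes of the sinusoidal endothelium summed to 290.4 to 399 CPM in young livers, 277 to 345 CPM in vehicle livers and 170.4 to 267 CPM in ABT-737 livers. Each ABT-737 liver lay below every other liver, and none of these genes was called in either comparison. The 5 hepatocyte genes summed to 81478 to 99538, 49720 to 75840 and 76802 to 94366 CPM, so that each vehicle liver lay below every other liver. Of the 5, 1 was called lower with age (Serpina1e, edgeR adjusted p = 0.0292), beside 10.8% of all genes tested in liver. The part of these cells in the members' values was not tested. Alveolar macrophage markers, a list of 8 genes, had 1 gene called higher with age in lung (Plet1, lost without vehicle replicate 5 with an edgeR adjusted p of 0.0656) and none after ABT-737, and 4 of the 8 were at 0 in every liver. The 4 proximal tubule genes of the kidney summed to 10174 to 11704 CPM in young, 8321 to 10180 CPM in vehicle and 11047 to 13070 CPM in ABT-737 kidneys, so that the vehicle and ABT-737 kidneys did not overlap. Among them Lrp2, the endocytic receptor megalin, was at 474 ± 51.7, 264 ± 43.1 and 443 ± 81.7 CPM (SD) in the same order. It fell by 0.84 ± 0.16 (SE) on the log2 scale with age (edgeR adjusted p = 0.00280) and was 0.74 ± 0.17 higher after ABT-737 (edgeR adjusted p = 0.0439), opposite in direction to Cd68 and Adgre1 in these kidneys, and its part in their values was not tested. Keratinocyte genes in skin (9762 to 31670 CPM, lowest in an ABT-737 skin) and surfactant and airway genes in lung (22496 to 55179 CPM) were high in their own tissue in every library.

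Genes whose levels most resembled those of the members were sought over all libraries of a tissue with at least 4 members tested, by Pearson's r with the mean standardised log2(CPM + 1) of those members. In liver (10 libraries, 4 members) they were Atf7 (r = 0.964), Rras (0.961), Tyrobp (0.961), Csf1r (0.946) and Ly6e (0.941). In lung (10 libraries, 7 members) they were Timm10b (0.977), Ms4a8a (0.963), Atp5f1 (0.952), C1qb (0.949) and Cfp (0.947). In skin (9 libraries, 5 members) they were C1s1 (0.992), Tmem106a (0.990), Nrros (0.990), Alox5ap (0.986) and Tcn2 (0.984). These r describe libraries that fall into 3 groups and share depth, and they are given without a test.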

How the data were processed

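The authors prepared bulk 3′ end libraries by a derivative of MARS-seq from whole perfused tissues and deposited whole-number read counts per transcript model, with skin in a table of its own and the other 3 tissues together. The submitters' processing notes name bcl2fastq, HISAT 0.1.5 and HOMER. Whether molecular barcodes were collapsed, and whether counting used strand, is not given in the sources used here. The counts were used as deposited, with no normalization by the authors. Each tissue was fitted apart with edgeR 4.0.16 (R 4.3.3): trimmed mean (TMM) scaling, filterByExpr with its minimum count of 10, the quasi-likelihood test over all 3 groups, and Benjamini-Hochberg adjustment over all genes tested, with calls at an adjusted p under 0.05. Adjusted p-values without another tool's name come from this fit. Young kidney, liver and lung were fitted together, and differences of the drug's change between tissues came from 1 fit over these 30 libraries. CPM are counts per 1000000 of the scaled library size. SE are the size of the log2 change over the root of the F statistic. A gene with at most 3 counts in each library of a group was set at 3 counts per library for fold bounds, which cover counting error only. The fits were tested on simulated counts. Settings tried were DESeq2 1.42.0, its size factors, filters, only the compared groups, a replicate block and leaving out each library. Replicate numbers are shared between vehicle and ABT-737 mice. Only in lung did all 3 same-numbered pairs deviate together (r 0.179 to 0.436, and -0.582 to 0.276 in the other tissues). Differently numbered pairs could be as alike: vehicle 4 and ABT-737 3 had r 0.318 in lung and 0.737 in skin. Pairing by number was therefore not established in any tissue, and the replicate block is given only as 1 of the settings. No 2 libraries of a group agreed within sampling noise (45 pairs compared). Named are all 10 members and genes taken from a set: from each other list, per tissue, up to 3 called genes with the smallest adjusted p in each comparison. The text gives only a part of that set. The members and the lists were chosen with earlier results of these data known. Some alternatives were chosen after seeing the data. They were the lung lists of other genes without vehicle replicate 5, the shares of all lung genes without ABT-737 replicate 4, and the bound for Msr1 in skin without vehicle replicate 5.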

Additional observations from a re-analysis of the deposited data

How the results depend on the processing

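Over all single values of the members, 496 kept their direction and their side of the threshold, 40 lost a call, 16 gained one and 13 turned. DESeq2 gave 1 call for ABT-737 against vehicle in kidney, 2 for ABT-737 against young in lung and 3 in skin. Without the filter on low counts these became 2, 3 and 3, with 4 for vehicle against young in kidney, 2 for ABT-737 against young in liver, 10 for young liver against young kidney and 8 for young liver against young lung. With only the compared groups fitted, ABT-737 against young gave 1 in liver and 1 in skin. The replicate block gave 1 for vehicle against young in kidney, 1 for ABT-737 against vehicle and 1 for vehicle against young in liver, and 0 for vehicle against young in lung and in skin. It changed no call between ABT-737 and vehicle in the old lungs (0 of 7 in both fits), where pairing by number was not established. Between young and vehicle mice, and in the other tissues, libraries share only a number (in lung, young and vehicle r 0.0725 and 0.111). Leaving out 1 library at a time, ABT-737 against vehicle gave 0 to 1 in kidney, 1 to 3 in liver and 0 to 1 in lung. Vehicle against young gave 2 to 4 in liver, 1 to 5 in lung and 0 to 4 in skin, and ABT-737 against young 0 to 1 in liver, 0 to 2 in lung and 0 to 2 in skin. The cause was not tested.

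The turned values were not called before or after. For ABT-737 against vehicle without 1 library, they ranged from -1.94 to 0.18 for Marco in liver, and in lung from -1.23 to 0.90 for Marco (0.019 with the replicate block), -0.33 to 0.44 for Mrc1, -1.25 to 0.0083 for Cd68 and -3.80 to 0.65 for Cd5l, and from -1.06 to 0.35 for Cd163 in skin. For Cd163 between vehicle and young lungs they ranged from -0.59 to 0.37, with 0.11 under the replicate block. Total counts of 223957 to 891116 in liver left 6 members untested there.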

Other observations

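Leukocyte groups beyond macrophages also differed in the lung. With age, 5 of 7 monocyte genes, 7 of 9 T and NK cell genes, 3 of 4 B cell genes and 2 of 4 neutrophil genes tested there were called higher, and none of them was called between ABT-737 and vehicle. These counts changed without vehicle replicate 5. In that fit, a choice made after the values were seen, 3 of 7, 7 of 9, 1 of 4 and 4 of 6 were called, where 3.13% of all genes tested were, against 8.15% with it. Ly6c2, a marker of classical monocytes, was at 41.5 ± 13.4 CPM in young lungs (SD, n = 4) and 802 ± 726 CPM in vehicle lungs (n = 3), a change of 4.27 ± 0.61 (SE) on the log2 scale (edgeR adjusted p = 0.00259), and of 3.20 ± 0.47 without vehicle replicate 5 (edgeR adjusted p = 0.00586). Nkg7, a granule protein of cytotoxic lymphocytes, was at 34.7 ± 7.33 and 637 ± 617 CPM (change 4.19 ± 0.61, edgeR adjusted p = 0.00259, and 3.02 ± 0.45 without that library, edgeR adjusted p = 0.00586). The B cell genes Ms4a1 and Cd79b were at 26.5 ± 13.9 and 157 ± 25.6 CPM in vehicle lungs and 37.1 ± 24.4 and 166 ± 109 CPM in ABT-737 lungs.

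Among dendritic cell genes of the lung, 2 rose with age and 1 fell. Clec9a, a receptor of cross-presenting dendritic cells, rose by 2.16 ± 0.55 (edgeR adjusted p = 0.0214), and Flt3, the receptor that drives their growth, rose by 2.10 ± 0.64 (edgeR adjusted p = 0.0453). Cd209a, a lectin of other dendritic cells, fell by 2.42 ± 0.67 (edgeR adjusted p = 0.0299) in lung, and in skin it rose with age by 3.30 ± 0.65 (edgeR adjusted p = 0.0191). None of the 3 lung calls held without vehicle replicate 5 (1.82, 1.78 and -1.84 in the same order, edgeR adjusted p = 0.129, 0.221 and 0.158). In the kidney, Plac8 and Ly6c2 of the monocyte list and Cd3d, Cd8a and Nkg7 of the T and NK cell list were called lower after ABT-737, with Cd3d at 7.24 ± 1.98 CPM with vehicle and 0.854 ± 0.311 CPM with ABT-737. Gpnmb, a glycoprotein of lipid-laden and phagocytic macrophages, was at 17.8 ± 5.54 CPM in young skin, 204 ± 65.7 CPM in vehicle skin and 231 ± 111 CPM in ABT-737 skin, so that the ABT-737 mean was not below the vehicle mean, whereas all 5 tested members were lower in ABT-737 skin without passing the test.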
